A study of Mus musculus with 32 samples.

Results

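Mitochondria carry their own circular DNA (mtDNA), which encodes rRNAs, tRNAs and a small set of respiratory chain proteins, whereas every factor that copies, transcribes and protects it is encoded in the nucleus. Transcription starts when TFAM, which also packages mtDNA, bends the promoter and recruits the RNA polymerase POLRMT, TFB2M opens the DNA and TEFM keeps the polymerase elongating. LRPPRC and SLIRP bind the mRNAs that result and keep them stable, TFB1M methylates the small-subunit rRNA, POLG with its accessory subunit POLG2 replicates mtDNA, and the transcription factor NRF1 activates nuclear genes for mitochondria. Brown adipose tissue is rich in mitochondria because it produces heat from the respiratory chain. The 10 genes Tfam, Tfb1m, Tfb2m, Polrmt, Tefm, Polg, Polg2, Lrpprc, Slirp and Nrf1 are described here, chosen by symbol as the 10 of 50686 rows of the count table whose Ensembl identifier maps to them, and all 10 passed the filter on low counts.

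The expression of these genes was followed in interscapular brown adipose tissue (iBAT) of male C57BL/6J mice, 10 weeks old, which were not fasted, were fed chow and were housed at 22 °C on a light cycle of 12 h. Time is given as Zeitgeber time (ZT) in hours after lights on, so that lights went off at ZT12. At each of 8 time points, 3 h apart from ZT0 to ZT21, 4 mice were sampled with 1 library per mouse, which gave 32 stranded RNA-seq libraries of wild-type animals with no other treatment. All groups shared strain, sex, age, diet and temperature, and they differed in time of day and in the sequencing lane. Lane 2 held the libraries of ZT0, ZT3 and ZT6, lane 3 those of ZT9, ZT12 and ZT15, and lane 4 those of ZT18 and ZT21. Differences between time points of separate lanes therefore cannot be told apart from a difference between lanes.

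Total counts ran from 16300770 to 18254659 per library. The tissue label was checked against brown adipocyte markers: all 10 were detected in all 32 libraries, and their summed level ran from 5507 to 9453 CPM, counts scaled to a common library total (for single genes also with TMM factors). It was higher at ZT9 (7274 to 9453 CPM) than at ZT15 (5871 to 6934 CPM) and ZT18 (5507 to 6915 CPM), without overlap. Of the 10 skeletal muscle markers, Myh1 was at 0 in 3 libraries and Tnni2 and Actn3 in 1 each, and the summed level ran from 2.51 to 8039 CPM. It differed within each time point, from 3.79 to 4996 CPM at ZT0 and from 739 to 8039 CPM at ZT15. Replicate 1 of ZT15 held the most muscle RNA, and values without that library, or with the muscle level as a covariate, are given where they change a call of one of the 10 genes or move a count for a list of other genes by over 1.5 times. The 10 blood and lymphoid markers summed to between 276 and 1234 CPM, and the 6 white adipocyte markers, of which Hoxc9 was at 0 in 27 libraries, to between 47.9 and 462 CPM. The sum of the white adipocyte markers differed with the time of day, from 47.9 to 81.3 CPM at ZT6 to between 211 and 462 CPM at ZT15, the highest being again replicate 1 of ZT15. Lep had the highest median of the 6 (96.6 CPM). The study lists Lep and Nnat (median 13.1 CPM) among the genes with the largest relative amplitude in one of its rhythmic clusters. Their part in the change of the sum was not tested. In bulk tissue, fewer cells of a type cannot be told apart from less RNA per cell.

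Over the day, Nrf1 and Polg passed the tests for oscillation and the other 8 genes did not, and of these 2 only Nrf1 also passed with the sequencing lane in the fit. By JTK, the rank-based test for rhythms that the study used, 2 of the 10 genes were called at P under 0.05 (Nrf1 and Polg), against 36.9% of all 15505 genes tested. The P of Nrf1 was 4.56e-07 and that of Polg was 8.04e-05. Both were also called at 0.05 once P was adjusted for all genes by the method of Benjamini and Hochberg (BH), against 27.5% of all genes. A 24 h cosine fitted with edgeR's quasi-likelihood test also called Nrf1 and Polg, against 36.1% of all genes. The median ratio of fitted peak to fitted trough was 1.12 for the 10 genes and 1.21 for all tested genes. In each of these 3 tests the share of the 10 genes called was below that of all genes, a description for which no test was made.

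**Figure D1:**
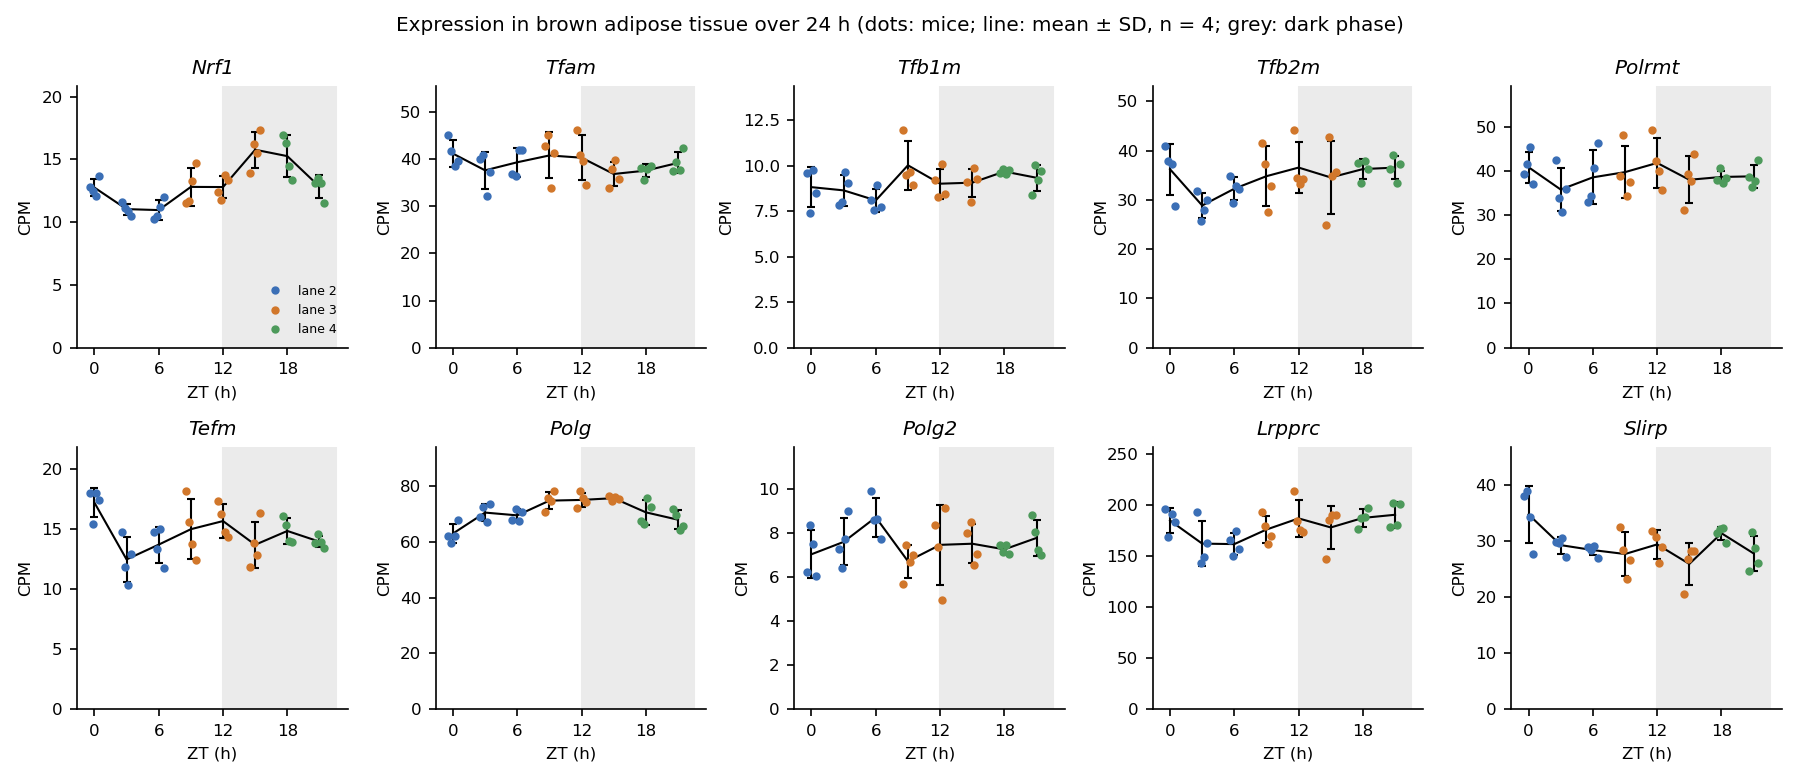
Expression (CPM, linear axis from 0) of the 10 genes against ZT in hours; dots are mice coloured by sequencing lane, the line joins time point means with SD (n = 4), and grey marks the dark phase. Nrf1 had its highest means at ZT15 and ZT18 and its lowest at ZT3 and ZT6, the mean of Polg was 63.1 CPM at ZT0 and 75.8 CPM at ZT15, and the other 8 genes varied by no more than 1.38 times between their lowest and highest time point mean.

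Since the promoters are where transcription factors of the clock and of mitochondrial biogenesis could act, those of these 2 genes are shown, from 250 bases before to 50 bases after the start, as RefSeq gives them for GRCm38.p6. Nrf1 has 2 such promoters on the plus strand of chromosome 6, at chr6:30047738-30048037 and chr6:30076071-30076370, and Polg has 1 on the minus strand, at chr7:79466224-79466523. Capitals mark matches to the ETS motif CCGGAAG, bound by GABPA among others, or to the NRF1 motif GCGCATGC, on either strand.
Nrf1, first start: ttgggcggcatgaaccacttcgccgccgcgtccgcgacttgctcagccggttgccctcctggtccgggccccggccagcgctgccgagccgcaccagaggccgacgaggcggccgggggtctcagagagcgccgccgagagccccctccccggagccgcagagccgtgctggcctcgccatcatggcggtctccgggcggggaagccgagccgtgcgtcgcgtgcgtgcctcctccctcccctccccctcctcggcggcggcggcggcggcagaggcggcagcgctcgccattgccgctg
Nrf1, second start: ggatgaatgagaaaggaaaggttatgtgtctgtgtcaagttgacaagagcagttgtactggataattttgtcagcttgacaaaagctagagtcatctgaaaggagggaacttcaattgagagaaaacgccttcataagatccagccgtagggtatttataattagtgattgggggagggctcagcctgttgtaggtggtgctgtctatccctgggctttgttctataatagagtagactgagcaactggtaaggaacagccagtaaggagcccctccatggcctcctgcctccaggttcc
Polg: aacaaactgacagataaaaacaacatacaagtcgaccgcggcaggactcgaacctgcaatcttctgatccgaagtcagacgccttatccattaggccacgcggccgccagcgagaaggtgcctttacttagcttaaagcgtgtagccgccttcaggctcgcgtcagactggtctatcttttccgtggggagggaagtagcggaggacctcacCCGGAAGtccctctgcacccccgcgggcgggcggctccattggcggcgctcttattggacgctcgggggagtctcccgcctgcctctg
Neither Nrf1 promoter held either motif, and that of Polg held 1 ETS match 38 bases before the start. The search covered 11 promoters of all 10 genes. The ETS motif was in 6 of the 11 (Polg, Polg2, Polrmt, Slirp, Tefm and Tfam), against 8.86% of 32851 promoters of the same length, and the Slirp promoter held 3 matches. The NRF1 motif was in 2 of the 11, beginning 133 bases before the start of Polrmt and 13 bases after that of Tfb2m, against 2.71% of all promoters. The E-box CACGTG (7.15% of all promoters), the nuclear receptor motif AGGTCA (16.3%) and the D-box TTATGNAA (3.38%), through which clock factors bind, were in 0 of the 11. A match is only a run of letters, and these windows say nothing about sites elsewhere.

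Nrf1 (ENSMUSG00000058440, chromosome 6, 30047988 to 30153458, plus strand) had the clearest rhythm. In the light phase the 4 mice had 12.8, 12.4, 12.1 and 13.7 CPM at ZT0, then 11.6, 11.1, 10.9 and 10.5 CPM at ZT3. At ZT6 they had 10.2, 10.5, 11.2 and 12.0 CPM and at ZT9 they had 11.5, 11.7, 13.3 and 14.7 CPM. Levels at ZT3 and ZT6 were thus the lowest of the day, and the mice of ZT0 and ZT3 did not overlap. In the dark phase the values were 12.4, 11.7, 13.7 and 13.3 CPM at ZT12 and 13.9, 16.3, 15.5 and 17.4 CPM at ZT15. They were 16.9, 16.3, 14.5 and 13.3 CPM at ZT18, and 13.1, 13.5, 13.1 and 11.5 CPM at ZT21. All 4 mice of ZT15 were above all 4 of ZT12, whereas ZT18 and ZT21 overlapped. The summed white adipocyte markers were lowest at ZT6 and highest at ZT15 as well, without overlap between these time points. The summed brown adipocyte markers were lower at ZT15, ZT18 and ZT21 than at ZT9. The part of either in the rhythm of Nrf1 was not tested.

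The mean of Nrf1 was thus 15.8 ± 1.44 CPM (SD, n = 4) at ZT15 and 11.0 ± 0.792 CPM (SD, n = 4) at ZT6, a ratio of 1.44. In the order of the 8 means, ZT6 < ZT3 < ZT0 < ZT12 < ZT9 < ZT21 < ZT18 < ZT15, 5 of 7 neighbouring pairs differed by less than the larger SD of the pair. The fitted cosine had an amplitude of 0.23 ± 0.03 on the log2 CPM scale (SE, n = 32) and a peak at ZT16.5 ± 0.538 h (SE), with a peak 1.37 times the trough (edgeR adjusted p = 1.83e-05). It kept its call with lane as a factor in the fit, where the amplitude was 0.26 ± 0.06 (SE) with a peak at ZT17.0 (edgeR adjusted p = 0.00569). Beside lane, Nrf1 was the 1 member of 10 called, against 17.2% of all genes. Between the time points of 1 lane Nrf1 did not pass the adjusted threshold (edgeR adjusted p = 0.125 in lane 2, 0.190 in lane 3 and 0.171 in lane 4), although its unadjusted p was under 0.05 in each lane. From ZT12 to ZT15, both on lane 3, the fold was 1.23 (log2 0.30 ± 0.09 SE, edgeR adjusted p = 0.0537). That step was past the threshold without any 1 of 4 libraries, with adjusted p = 0.0465 and 0.0431 without replicates 1 and 4 of ZT9, 0.0340 without replicate 1 of ZT15 and 0.0489 without replicate 4 of ZT18, and with the muscle level as a covariate (0.0461).

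Polg (ENSMUSG00000039176, chromosome 7, 79446231 to 79466362, minus strand), the catalytic subunit of the mtDNA polymerase, was the other gene called, with a smaller amplitude and an earlier peak. The mice had 62.3, 59.6, 62.3 and 68.0 CPM at ZT0, and 68.9, 72.6, 67.3 and 73.5 CPM at ZT3. At ZT6 the values were 68.0, 71.9, 67.6 and 71.0 CPM, and at ZT9 they were 70.8, 76.0, 74.6 and 78.2 CPM. Levels were lowest at ZT0 and higher by the end of the light phase. They were 72.1, 78.3, 75.9 and 74.3 CPM at ZT12, and 76.6, 74.7, 76.3 and 75.6 CPM at ZT15. In the late dark phase the mice had 67.5, 66.7, 76.0 and 72.6 CPM at ZT18 and 72.0, 69.7, 64.5 and 65.9 CPM at ZT21. The spread was smallest at ZT15, where the SD was 0.838 CPM around a mean of 75.8 CPM.

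The fitted peak of Polg was at ZT12.0 ± 0.620 h (SE), with an amplitude of 0.11 ± 0.02 (log2 CPM, SE) and a peak 1.16 times the trough (edgeR adjusted p = 0.000508). With lane in the fit the amplitude was 0.09 ± 0.04 (SE) and the call was lost (edgeR adjusted p = 0.270), so that for Polg a rhythm and a difference between lanes cannot be told apart. At the onset of the dark phase the level was 1.19 times that at the onset of the light phase (75.1 ± 2.62 CPM at ZT12 against 63.1 ± 3.54 CPM at ZT0, SD, n = 4 each), and the mice did not overlap. This was the 1 member of 10 called between ZT12 and ZT0 (log2 0.25 ± 0.05 SE, edgeR adjusted p = 0.00149), against 15.9% of all genes in either direction. It was not called in a fit of those 8 libraries alone (edgeR adjusted p = 0.0518), and without replicate 4 of ZT0 the number of members called was 2, Slirp being the other (log2 -0.34, edgeR adjusted p = 0.0249). Between ZT0 and ZT3, within lane 2, Polg was higher at ZT3 (70.6 ± 2.97 CPM, SD, n = 4) with a fold of 1.12 (log2 0.16 ± 0.05 SE, edgeR adjusted p = 0.0381), with overlapping mice. That step was lost without any 1 of replicates 1, 2 and 3 of ZT0 or 2 and 4 of ZT3 (adjusted p from 0.0866 to 0.122), in the fit of the 8 libraries alone (0.169) and with no filter on low counts (0.189). Of the merged exon of Polg, 921 bases overlap Fanci on the opposite strand, a gene with 191 counts over all libraries.

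**Figure D2:**
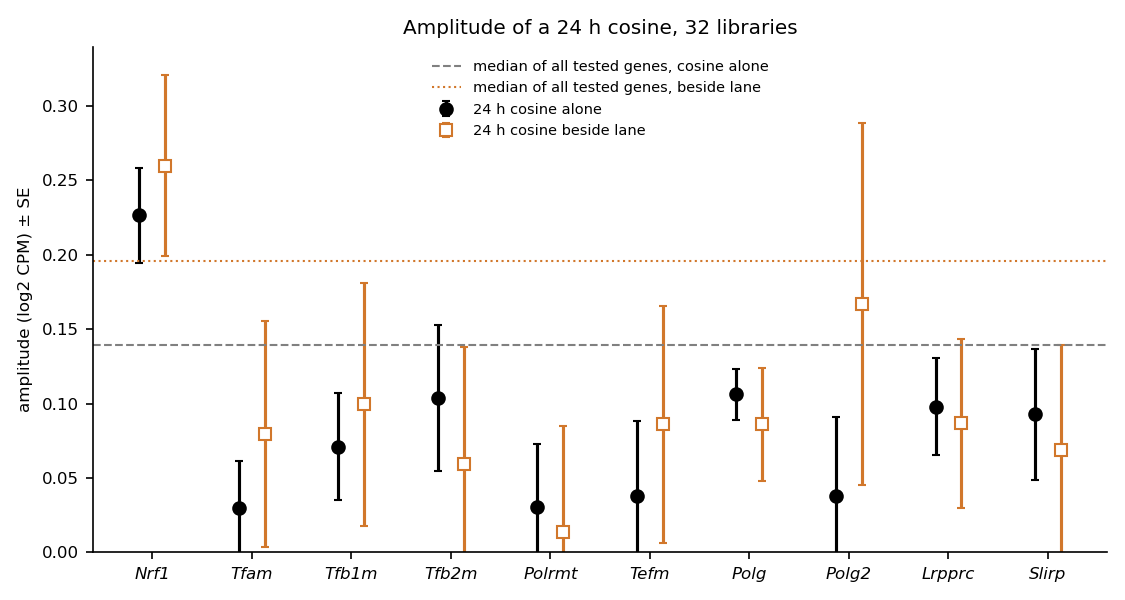
Amplitude of a 24 h cosine on the log2 CPM scale (points, with SE) for the 10 genes over 32 libraries, fitted alone (filled circles) and with sequencing lane as a factor (open squares); the dashed and dotted lines are the medians of all tested genes in the same 2 fits, 0.14 and 0.20. Nrf1 was above the median of each fit, at 0.23 and 0.26, the other 9 genes were below it in both, and the SE widened for all 10 genes when lane was in the fit.

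The difference between the 8 time points, without the assumption of a cosine, was called for 4 of the 10 genes, against 39.8% of all genes. Beside Nrf1 (edgeR adjusted p = 0.000130) and Polg (0.00281) these were Tefm (0.0375) and Slirp (0.0447). The number called was 2 with no filter on low counts and without any 1 of replicates 1 and 3 of ZT0, 2 and 3 of ZT3 and 2 of ZT12.

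Tefm (ENSMUSG00000046909, chromosome 11, 80136678 to 80142175, minus strand), the elongation factor of mitochondrial transcription, fell from ZT0 to ZT3. The 4 mice had 18.0, 15.4, 18.0 and 17.4 CPM at ZT0, and 14.8, 11.8, 10.4 and 12.9 CPM at ZT3. All mice of ZT0 were above all those of ZT3, both on lane 2. The fold was 0.725 (log2 -0.46 ± 0.11 SE, edgeR adjusted p = 0.00780), and with Polg, which rose, this made 2 members called at this step, against 13.8% of all genes. Tefm was also the 1 member that differed between the 3 time points of lane 2 (edgeR adjusted p = 0.0402), against 12.6% of all genes. That call was lost with scaling by library size alone (edgeR adjusted p = 0.0607), with the muscle level as a covariate (0.0546) and in the fit with a replicate block (0.0562). It was also lost without any 1 of 10 of the 12 libraries (from 0.0533 to 0.106), all but replicate 1 of ZT3 and replicate 4 of ZT6. The number of members called in lane 2 was then 0, except that Slirp and Tfb2m were called without replicate 4 of ZT0 and Tfb2m with the covariate. At the other time points the mean of Tefm lay between 13.7 and 15.7 CPM, with single mice from 11.8 to 18.2 CPM, so that the level of ZT0 was not outside the values seen later. The difference between time points was lost for Tefm without any 1 of 8 libraries (adjusted p from 0.0509 to 0.0853), namely replicates 1, 3 and 4 of ZT0, 2, 3 and 4 of ZT3, 2 of ZT12 and 3 of ZT15.

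Slirp (ENSMUSG00000021040, chromosome 12, 87443896 to 87452206, plus strand), which stabilises mitochondrial mRNAs, had its highest mean at ZT0. The mice had 38.0, 38.9, 34.3 and 27.7 CPM at ZT0, 29.8, 29.7, 30.4 and 27.0 CPM at ZT3, and 20.4, 26.8, 28.1 and 28.1 CPM at ZT15, the time point with the lowest mean. Replicate 4 of ZT0 lay among the mice of ZT3 and ZT15, whereas the other 3 of ZT0 lay above them. The call was the least stable of the 4: without any 1 of 22 of the 32 libraries it was lost, with an adjusted p of up to 0.142 without replicate 2 of ZT0 and of 0.0519 without replicate 1 of ZT15. It was also lost with DESeq2 size factors (edgeR adjusted p = 0.0520), without mtDNA-encoded genes (0.0514), with no filter (0.0892) and with the muscle level as a covariate (0.0541). From ZT0 to ZT3 the log2 change was -0.25 ± 0.11 (SE), with an adjusted p of 0.112 by edgeR, and without replicate 4 of ZT0 it was -0.34 with an adjusted p of 0.0204. The exons of Slirp overlap those of Snw1 on the opposite strand over 93.9% of their merged length, and only 68 bases lie outside exons of the other strand. Slirp had 389 to 656 counts per library. Of 421 genes whose exons lie wholly inside exons of the other strand, 35 had 100 or more counts over all libraries, with up to 20873. The strand setting of the counting is not stated in the sources used here, so reads of Snw1 in the value of Slirp were not tested.

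Lrpprc, the partner of Slirp and the most highly expressed of the 10 genes, had fitted rhythm values just outside the threshold. Its mean ran from 162 ± 10.9 CPM (SD, n = 4) at ZT6 to 191 ± 12.9 CPM at ZT21, a ratio of 1.18, and the fitted cosine peaked at ZT17.7 ± 1.27 h with an amplitude of 0.10 ± 0.03 (log2 CPM, SE, edgeR adjusted p = 0.0560). Replicate 1 of ZT15, which had the most muscle RNA, had 147 CPM while the others at that time had 185 to 190 CPM. Without it the adjusted p was 0.0117, and it was also under the threshold without replicate 1 of ZT3 (0.0315), ZT9 (0.0327), ZT12 (0.0402) or ZT18 (0.0496) and with scaling by library size alone (0.00927). Between the 8 time points Lrpprc was called without replicate 1 of ZT3 (edgeR adjusted p = 0.0359) and not with all libraries (0.145), and the step from ZT0 to ZT3, at -0.19 on the log2 scale, had an adjusted p of 0.161 with all libraries and 0.0398 without that one.

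Tfb2m, the factor that opens the mtDNA promoter, had the largest spread between mice of a time point after Polg2, with a mean coefficient of variation of 11.9%. Its mean was lowest at ZT3 (28.8 ± 2.59 CPM, SD, n = 4) and highest at ZT12 (36.5 ± 5.17 CPM), and neither the cosine (edgeR adjusted p = 0.187) nor the time points (0.251) passed. Replicate 1 of ZT15 had 24.9 CPM, below the others at that time, which had 34.8 to 42.7 CPM, and without it the cosine of Tfb2m had an adjusted p of 0.0400. Together with Lrpprc this raised the number of members with a cosine from 2 to 4 without that library. The share of all genes called in that fit is not given here, so the rise is not set against it. The step from ZT0 to ZT3 was -0.33 on the log2 scale with an adjusted p of 0.0893, and 0.0250 without replicate 4 of ZT0 and 0.0495 without replicate 1 of ZT15.

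Tfam, Polrmt, Tfb1m and Polg2 were not called in any of these tests with all libraries. Tfam, which both packages mtDNA and starts its transcription, ran from 36.9 ± 2.56 CPM (SD, n = 4) at ZT15 to 41.2 ± 2.90 CPM at ZT0, a ratio of 1.12 that was the smallest of the 10 genes. Its fitted peak was 1.04 times the trough, with an upper 95% bound of 1.14 over the 32 libraries. Polrmt, the RNA polymerase itself, ran from 35.8 ± 4.97 CPM at ZT3 to 41.8 ± 5.72 CPM at ZT12, with a fitted ratio of 1.04 and an upper bound of 1.18. Tfb1m ran from 8.10 ± 0.625 CPM at ZT6 to 10.0 ± 1.35 CPM at ZT9, a ratio of means of 1.24, and its fitted ratio was 1.10 with an upper bound of 1.22. Polg2 ran from 6.72 ± 0.747 CPM at ZT9 to 8.72 ± 0.894 CPM at ZT6, a ratio of means of 1.30, and its fitted ratio was 1.05 with an upper bound of 1.23. These bounds hold for the cosine fitted without lane and not for the ratio of 2 time point means. Beside lane the amplitudes were 0.10 ± 0.08 for Tfb1m and 0.17 ± 0.12 for Polg2 (log2 CPM, SE). For Tfam, Polrmt and Tfb1m, and likewise for Lrpprc and Slirp, all 7 neighbouring pairs in the order of time point means differed by less than the larger SD of the pair. The counts behind these values were 556 to 781 per library for Tfam, 531 to 833 for Polrmt, 125 to 206 for Tfb1m and 82 to 167 for Polg2, so that the last 2 were the least precisely counted of the 10.

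Of the 5 steps of 3 h within a lane, only that from ZT0 to ZT3 had members called. From ZT3 to ZT6 the count was 0 of 10 (2.08% of all genes), with 0 at an unadjusted p under 0.05, and from ZT9 to ZT12 it was 0 (0% of all genes), also with 0 unadjusted. From ZT12 to ZT15 (3.04% of all genes) and from ZT18 to ZT21 (2.06%) the counts were 0, with 1 unadjusted in each, which was Nrf1. Between the time points of lane 3 (1.78% of all genes) and of lane 4 (4.02%) the counts were likewise 0 with 1 unadjusted, again Nrf1. DESeq2 gave the same counts of 0 for each of these edgeR tests. Leaving out single libraries moved the 2 calls over the 5 steps to between 1 and 4. The count was 1 without any 1 of replicates 1, 2 and 3 of ZT0 and 2 and 4 of ZT3, and 4 without replicate 4 of ZT0 or replicate 1 of ZT15.

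Levels between genes were compared per kilobase of merged exon. Lrpprc was highest at 21.0 CPM per kb, followed by Tfb2m at 12.3, and Slirp, Tefm, Tfam and Polrmt lay close to each other at 9.43, 9.28, 8.82 and 8.33 CPM per kb. Polg had 6.61 CPM per kb. Tfb1m with 2.52, Polg2 with 1.72 and Nrf1 with 1.27 CPM per kb were the lowest, so that the gene with the largest amplitude was the one with the lowest level per length. Merged exons include all annotated transcripts, of which the tissue may use only some, so these levels rank the genes only roughly.

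The 10 genes did not all share 1 pattern over the 32 libraries. Pearson's r of log2 CPM between pairs of them ran from -0.60 (Polg and Slirp) to 0.79 (Tfb2m and Lrpprc), with a median of 0.13 over 45 pairs, a description in which all pairs share libraries, lanes and depth. All 15 pairs among Tfam, Tfb2m, Polrmt, Tefm, Lrpprc and Slirp, a group of 6 singled out after the values were seen, were positive, from 0.32 to 0.79 with a median of 0.54. Of the other 30 pairs, which involve Polg, Polg2, Tfb1m or Nrf1, 14 were positive, with a median of -0.06. The gene most like Nrf1 among 13448 others was Cd200 (r = 0.88), while the closest member was Lrpprc at 0.32. For Polg it was Pcdhgc3 (r = 0.86), with Nrf1 as the closest member at 0.22. The genes most like Lrpprc and Slirp were the mitochondrial enzyme gene Echs1 (0.88) and the complex I subunit gene Ndufs4 (0.88). Tfb2m was most like Slc35g1 (0.89), Tfam like the malonyl-CoA decarboxylase gene Mlycd (0.78), Polrmt like the mitochondrial ribosomal protein gene Mrps2 (0.77) and Tefm like the fumarase gene Fh1 (0.76). Tfb1m and Polg2 had no gene closer than Gclc (0.65) and Unc45a (0.64).

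Whether partners vary together from mouse to mouse was asked after subtracting the mean of each time point, for 4 relations. For Lrpprc and Slirp, which work as 1 complex, Pearson's r was 0.49 over 32 mice (permutation within time points, two-sided, p = 0.0157, BH over the 4 relations 0.0627) and Spearman's rho was 0.45 (permutation p = 0.0239, BH 0.0956), so that the relation did not pass after adjustment. Without the 2 mice farthest from the median of Lrpprc it was 0.36 (permutation p = 0.123), without replicate 1 of ZT15 alone it was 0.32 (permutation p = 0.109), and the pooled value thus rests in part on that mouse. With scaling by library size alone r was 0.23 (permutation p = 0.212). The lanes gave separate values. In lane 3 (12 mice of ZT9, ZT12 and ZT15) r was 0.91 and rho was 0.92 (exact permutation p = 0.000506, BH over 12 lane tests 0.00608 for r), and r stayed between 0.83 and 0.95 when any 1 of the 12 mice was left out (largest exact p = 0.0136). With scaling by library size alone it was 0.82 in that lane (exact permutation p = 0.00492). In lane 2 r was -0.04 over 12 mice (exact permutation p = 0.893) and in lane 4 it was 0.27 over 8 mice (exact p = 0.564). Both changed sign when single mice were left out, from -0.15 to 0.18 in lane 2 and from -0.23 to 0.51 in lane 4. The difference between the lanes was not tested. Over the 32 libraries without subtracting the time point means, r of Lrpprc and Slirp was 0.39. Lrpprc had a higher r with Tfb2m (0.79), Tefm (0.67), Polrmt (0.60), Tfam (0.46) and Tfb1m (0.43). It had a lower r with Nrf1 (0.32), Polg (-0.14) and Polg2 (-0.20). Whether the relation among mice is particular to Lrpprc and Slirp was not tested.

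**Figure D3:**
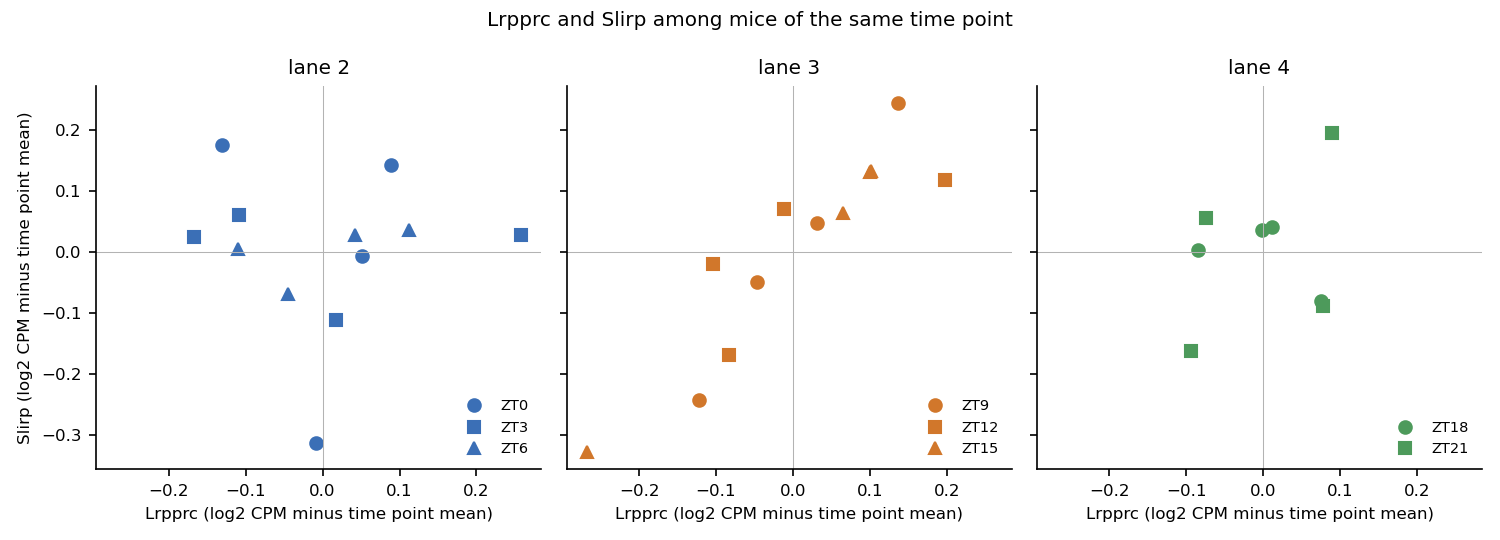
Slirp against Lrpprc, each as log2 CPM minus the mean of its time point, with 1 point per mouse and 1 panel per sequencing lane; symbols mark time points. The 12 mice of lane 3 lie along a rising line (r = 0.91), while those of lane 2 (r = -0.04) and lane 4 (r = 0.27) do not.

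Nrf1 and Tfam, a gene that NRF1 is known to activate, showed no relation that passed (r = -0.12, permutation p = 0.580, rho = -0.12, permutation p = 0.555, 32 mice), with r of 0.49, -0.29 and -0.61 in lanes 2, 3 and 4 (exact permutation p = 0.122, 0.441 and 0.146). Nor did Polrmt and the share of counts from mtDNA-encoded genes (r = -0.11, permutation p = 0.636, rho = -0.14, permutation p = 0.518), with r of 0.45, -0.56 and -0.09 in the 3 lanes (exact permutation p = 0.211, 0.0872 and 0.845). For Lrpprc and the share of mtDNA-encoded mRNAs r was -0.24 (permutation p = 0.209) and rho was -0.19 (permutation p = 0.339), with r of 0.30, -0.69 and -0.15 in the lanes (exact permutation p = 0.272, 0.0187 and 0.743, and 0.112 in lane 3 after BH over 12 lane tests).

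The RNA that this machinery makes was set beside it. The 13 mtDNA-encoded mRNAs took 18.8% ± 1.26 (SD, n = 4) of all counts at ZT18 and 24.8% ± 3.23 at ZT9, and the 2 rRNAs from 0.326% ± 0.0101 at ZT9 to 0.787% ± 0.102 at ZT18. At ZT15, 3 h after ZT12 and on the same lane, the rRNA share was 0.697% ± 0.0890 against 0.328% ± 0.0381, and the 4 mice of each time point did not overlap. Over the same step Polrmt, Tfam and Tfb2m had lower means at ZT15 and were not called, and Nrf1 had its highest mean. For Tfb2m the lower mean rests on replicate 1 of ZT15 (24.9 CPM). The others at ZT15 had 34.8 to 42.7 CPM, against a mean of 36.5 CPM at ZT12. Of the 15 mtDNA-encoded genes 11 (73.3%) had a 24 h cosine, against 36.1% of all genes, 14 (93.3%) differed between time points, against 39.8%, and 5 (33.3%) had a cosine beside lane, against 17.2%. The 4 with the largest amplitudes included both rRNA genes, mt-Rnr2 with 0.59 ± 0.10 (log2 CPM, SE) and a peak at ZT20.4 and mt-Rnr1 with 0.45 ± 0.09 and a peak at ZT20.3, and both kept their call beside lane. The other 2 were mt-Atp6 (0.50 ± 0.09, peak at ZT17.4) and mt-Nd4l (0.46 ± 0.09, peak at ZT17.3), neither of which was called beside lane. These 2 are 2 of 5 genes with a called cosine (mt-Nd3, mt-Nd4l, mt-Co2, mt-Co3 and mt-Atp6) of whose 100-base stretches only 0.146% to 2.41% are absent from nuclear transcripts, so that their low counts, with means of 4.08 to 65.1 CPM, are uncertain. All stretches of both rRNA genes are absent from nuclear transcripts. The other mRNAs with a called cosine, named here after their values were seen, have 96.8% to 100% of their stretches absent from nuclear transcripts, and 3 abundant ones among them had their fitted peaks in the light phase. These were mt-Nd1 (0.24 ± 0.03, peak at ZT4.98, edgeR adjusted p = 1.79e-05), mt-Nd2 (0.17 ± 0.04, ZT3.68, 0.00261) and mt-Cytb (0.12 ± 0.03, ZT6.76, 0.0281, and 0.0568 with the muscle level as a covariate). The call of mt-Cytb was also lost without any 1 of 5 libraries (edgeR adjusted p from 0.0519 to 0.0653) and with no filter (0.115). Without replicate 1 of ZT15, mt-Co1 (edgeR adjusted p = 0.0279) and mt-Nd4 (0.0476) had a called cosine as well. The fourth, mt-Nd6, which is transcribed from the other mtDNA strand, peaked late in the dark phase (0.42 ± 0.08, ZT23.6, 0.000665) at a mean of 100.3 CPM. Beside lane mt-Nd1 (edgeR adjusted p = 0.00213) and mt-Nd6 (0.0470, lost without any 1 of 20 of the 32 libraries) were called, and mt-Nd2 (0.136) and mt-Cytb (0.207) were not. Also called beside lane was mt-Nd5 (edgeR adjusted p = 0.00522), named after its value was seen, with 100% of its stretches absent from nuclear transcripts. By the cosine alone mt-Nd5 was not called (0.0676), though it was without any 1 of 4 libraries (from 0.0274 to 0.0446). Whether and how rRNA was removed before sequencing is not given in the sources used here, and its part in the rRNA values was not tested.

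**Figure D4:**
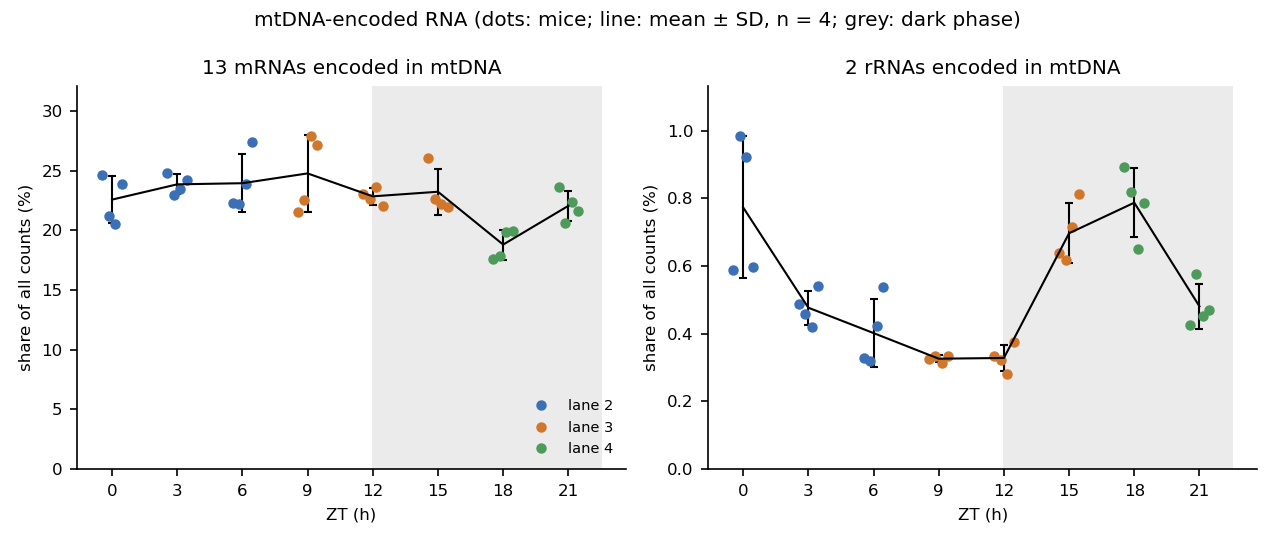
Share of all counts (percent, linear axis from 0) taken by the mtDNA-encoded mRNAs (left) and rRNAs (right) against ZT in hours; dots are mice coloured by sequencing lane, the line joins means with SD (n = 4), and grey marks the dark phase. The mRNA share was lowest at ZT18 (18.8%), and the rRNA share was lowest at ZT9 and ZT12 and highest at ZT0 and ZT18.

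Other genes of mtDNA and mitochondrial RNA upkeep were taken from lists. Of 11 genes for mtDNA replication and maintenance, 5 (45.5%) had a 24 h cosine, against 36.1% of all genes, 4 (36.4%) differed between time points, against 39.8%, and 3 (27.3%) had a cosine beside lane, against 17.2%. They included Exog, a mitochondrial nuclease gene, with the largest amplitude (0.40 ± 0.06 log2 CPM, SE, peak at ZT20.0), Twnk, the gene of the mtDNA helicase (0.25 ± 0.05, ZT18.0), Mgme1, the gene of an exonuclease of mtDNA (0.24 ± 0.03, ZT20.4), and the nuclease gene Endog (0.16 ± 0.04, ZT17.0). Exog, Twnk and Mgme1 kept their call beside lane and Endog did not. The fifth gene called, Primpol, which encodes a primase-polymerase and is named here outside the rule on amplitude, had its peak in the light phase at ZT2.26 (0.14 ± 0.05, edgeR adjusted p = 0.0423, and 0.245 beside lane), and its call was lost without any 1 of 14 of the 32 libraries.

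Of 31 genes for processing, modification, stability and decay of mitochondrial RNA, 14 (45.2%) had a cosine and 17 (54.8%) differed between time points, against 36.1% and 39.8% of all genes, and 2 (6.45%) had a cosine beside lane, against 17.2%. The last count rests on single libraries: without replicate 1 of ZT15, the one with the most muscle RNA, it was 6 (Fastkd2, Mrm3, Pde12 and Ptcd2 were added), against 20.9% of all genes in that fit, with the muscle level as a covariate it was 4 and without replicate 2 of ZT0 it was 1. The count between time points was 11 without any 1 of replicates 2, 3 and 4 of ZT3. Between ZT0 and ZT3, 12 of the 31 (38.7%) fell and 0 rose, while of all genes 6.6% fell and 7.16% rose. Without any 1 of replicates 1, 2 and 3 of ZT0 or replicate 2 of ZT3 the number that fell was 5, and without replicate 3 of ZT3 it was 6, while 3.73% to 4.56% of all genes fell in those 5 fits. In the fit of the 8 libraries alone it was 3, against 2.59% of all genes. Fastkd5, Mrm1 and Mrm3 were called in each of these fits. With no filter on low counts the counts for cosine, time points, cosine beside lane and the fall to ZT3 were 9, 10, 1 and 7. That setting adjusts over 30586 genes instead of 15505, and the shares of all genes called in it are not given here. The largest amplitude was that of Fastkd5 (0.50 ± 0.10 log2 CPM, SE, peak at ZT17.4), which is needed for processing of mitochondrial mRNA, and its mean ran from 2.96 ± 0.31 CPM at ZT3 to 7.05 ± 1.09 CPM at ZT0. The rRNA methyltransferase genes Mrm2 (0.31 ± 0.06, ZT17.1) and Mrm3 (0.24 ± 0.07, ZT17.6) and the termination factor family gene Mterf2 (0.24 ± 0.06, ZT18.0) followed, all 3 lowest at ZT3 and highest at ZT18. Fastkd5 kept its call beside lane and the other 3 did not, with Mrm3 at an edgeR adjusted p of 0.0969 there and 0.0148 without replicate 1 of ZT15. The second gene called beside lane was Mterf3 (edgeR adjusted p = 0.0259, and 0.0655 without replicate 2 of ZT0), named after its value was seen.

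Of 9 nuclear regulators of mitochondrial genes 2 (22.2%) had a cosine and 4 (44.4%) differed between time points, against 36.1% and 39.8% of all genes, and 3 (33.3%) had a cosine beside lane, against 17.2%. Esrra, a nuclear receptor gene that drives oxidative genes, peaked at ZT10.5 with an amplitude of 0.18 ± 0.03 (log2 CPM, SE), and Yy1 at ZT17.7 with 0.12 ± 0.03. Neither kept its call beside lane (edgeR adjusted p = 0.598 and 0.0569). The 3 called beside lane, named here after their values were seen, were Gabpb1, a subunit of the GABP complex (amplitude beside lane 0.20 ± 0.05, edgeR adjusted p = 0.0239), the coactivator gene Ppargc1a (0.58 ± 0.22, 0.0218) and Perm1 (0.83 ± 0.23, 0.0477), and none of these was called in the cosine test alone. Perm1 was not called beside lane with the muscle level as a covariate (edgeR adjusted p = 0.0660) or without replicate 1 of ZT15 (0.0608), and its call was lost without any 1 of 25 of the 32 libraries. Under those 2 alternatives the count stayed at 3 with different genes, Pprc1 being called with the covariate (0.0185) and Hcfc1 without that library (0.0226). Single libraries moved it, to 1 without replicate 2 of ZT0 or replicate 4 of ZT15 and to 5 without replicate 3 of ZT9. It was 1 with library size only and 1 with no filter, and 5 with DESeq2 and 5 with a replicate block. The number with a cosine was 4 without replicate 1 of ZT21. The number differing between time points was 2 without replicate 3 of ZT15 and 2 with library size only, and 7 with DESeq2. The shares of all genes in these alternatives are not given here, so the moves are not set against them. Beside lane the amplitude of Nrf1 was 0.26 ± 0.06.

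**Figure D5:**
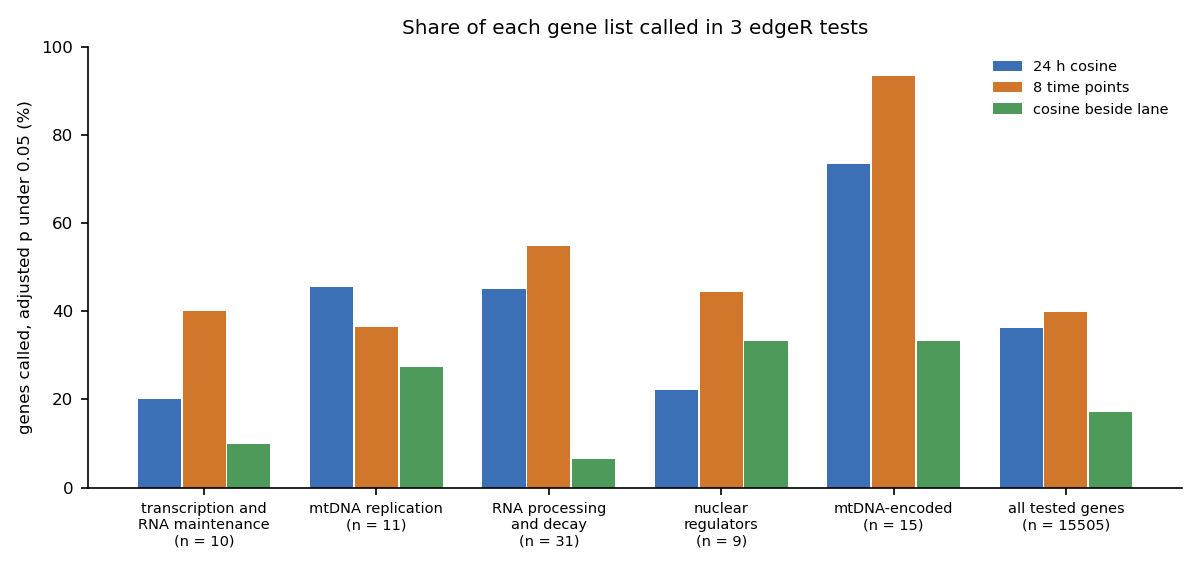
Percent of the tested genes of each list called (edgeR adjusted p under 0.05) in the 24 h cosine test, the test between 8 time points and the cosine test beside lane; bars start at 0 and n is the number of genes in the list. The 10 genes of mtDNA transcription and RNA maintenance had 2, 4 and 1 called, and the 15 mtDNA-encoded genes had 11, 14 and 5.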

How the data were processed

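Raw read counts per gene were deposited by the authors for 32 libraries, 1 per mouse. Per the methods of the study and the submitters' processing notes, reads were mapped to mm10 with GSNAP and counted per Ensembl gene with HTSeq (0.6.1); the strand setting is not given in the sources used here. No normalization had been applied. Coordinates and exon lengths come from the GENCODE annotation of GRCm38, not the release counted with.

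Genes passing filterByExpr (15505, holding 99.9% of all counts) were scaled by TMM and tested with edgeR (4.0.16, R 4.3.3), quasi-likelihood, BH under 0.05 over all tested genes: a 24 h cosine, the same beside lane, the 8 time points, the time points of each lane, and contrasts. JTK was an own implementation (cosine templates of 21 and 24 h, Bonferroni over 15 templates, P under 0.05 as in the study). Amplitudes come from least squares on log2 CPM (prior count 2). Relations used 100000 permutations of mice within time points, or all of them within lanes. Alternatives were DESeq2 (1.42.0) or its size factors, library size alone, no mtDNA-encoded genes, no filter, a replicate block, prior count 0.5, each library left out and, added after seeing the data, the muscle marker level as covariate within lanes, leaving out each library and other scalings, and all alternatives for the list genes. The scripts were tested on simulated data. Total counts of 16300770 to 18254659 set the counting precision. No pair of libraries of a time point agreed within counting noise (lowest mean chi-square per gene 7.97 over 48 pairs). The labels give separate mice, and groups come from the time in their titles.

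The 10 genes and all lists were chosen with earlier results of these data known. All 10 are named; of other lists, up to 4 genes with the largest amplitude among those with a called cosine; and per member the 1 most correlated gene with at least 1 CPM. Genes named outside this rule are said to be so where they appear. The replicate numbers were not used as pairs. Of the gene tables supplied, proteins were not used here.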

Additional observations from a re-analysis of the deposited data

Results flagged for a closer look

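In 2 of 80 groups of 4 mice (10 genes at 8 time points) 1 mouse lay far from the other 3, with a gap to the nearest one above Dixon's 95% critical value for 4 samples, which chance passes in about 1 group in 20. Tfb2m at ZT12 was 44.3 CPM in replicate 1 and 33.2 to 34.5 CPM in the other 3 mice. Lrpprc at ZT15 was 147 CPM in replicate 1 and 185 to 190 CPM in the other 3, and that library also had the highest summed level of skeletal muscle markers (8039 CPM, against 739 to 4651 CPM in the other 3) and of white adipocyte markers (462 CPM, against 211 to 253 CPM). The part of muscle or white adipocyte RNA in the value was not tested.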

How the results depend on the processing

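The 2 calls by JTK, the 2 by cosine and the 1 by cosine beside lane stayed within 1.5 times under every planned setting other than leaving out single libraries, at 2 to 3, 2 to 3 and 1. Without single libraries they ran from 2 to 3, from 2 to 4 and at 1. The calls between the 8 time points ran from 2 to 4 without single libraries and were 2 with no filter. Within lane 2 they ran from 0 to 2, and were 0 with library size only and 0 with the replicate block; within lanes 3 and 4 they were 0 throughout. Between ZT12 and ZT0 they ran from 1 to 2, and were 0 in a fit of those 8 libraries alone; over the same-lane steps they ran from 1 to 4, and were 1 with no filter and 1 in fits of the 8 libraries alone. The relation of Lrpprc and Slirp ran from 0.32 to 0.59 without single libraries, and was 0.23 with library size only and 0.36 without the 2 mice farthest from the median. Without single libraries the other relations ran from -0.21 to -0.05 (Nrf1 and Tfam), from -0.33 to 0.02 (Polrmt) and from -0.33 to -0.08 (Lrpprc and the mRNA share). Of 1170 refits of single members in the cosine, time point and cosine-beside-lane tests 1127 kept their side of the threshold, 35 lost a call and 8 gained one. With the muscle marker level as covariate, an alternative chosen after seeing the data, the counts were 2 (cosine), 1 (beside lane), 3 (time points), 1 (ZT12 against ZT0) and 3 (same-lane steps). All counts of calls in this section are given without the share of all genes in the same setting. The causes were not tested. Libraries with equal replicate numbers came from separate mice and were not more alike than others. Over 112 pairs with the same number the median correlation of deviations was -0.12, against 0.07 over 336 other pairs. Of 32 libraries 4 correlated best with their own number. Among the members the block changed no other count of calls by over 1.5 times, whereas for the nuclear regulators it did so in the cosine test beside lane. At 82 to 167 counts per library Polg2 was the least precisely measured gene.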
